A study of Mus musculus with 17 samples.

Results

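Brown adipose tissue from wild-type mice kept on chow was compared with the same tissue from wild-type mice fed a high-fat diet (HFD), by RNA sequencing of whole tissue. The comparison used 9 of the 17 libraries of the study, 4 on chow and 5 on HFD, and every gene that passed a filter on low counts, which was 17717 of the 55414 genes in the deposited count table. All mice were C57BL/6J, a common inbred strain, and were housed at 22 °C with 12 h of light, per the submitters' design text and protocols. HFD supplied 45% of calories as fat for 12 weeks, and the chow mice received a standard rodent diet. The other 8 libraries, 3 on chow and 5 on HFD, came from mice with Acbp (annotated as Dbi) deleted conditionally in brown adipocytes, the Acbp BAd-KO. They entered the filter on low counts, the scaling and the estimate of the spread between replicates, and nothing else except where a knockout value is named. The labels call the wild-type group only wild-type, so whether these mice carried floxed alleles without a Cre transgene is not given in the sources used here, nor are age, sex, the hour of dissection or body weight. Whether each sample came from its own animal is not stated either, and the p-values therefore rest on the variation among these samples, which may be partly technical.

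Brown fat burns fatty acids and glucose in dense mitochondria and releases the energy as heat through uncoupling protein 1 (Ucp1), under the control of noradrenaline from sympathetic nerves. It also makes fatty acids from glucose at a high rate, through ATP-citrate lyase, acetyl-CoA carboxylase, fatty acid synthase and stearoyl-CoA desaturase, a pathway driven by insulin through the transcription factors SREBP1c and ChREBP. In obese rodents the depot is known to store more triglyceride in larger droplets, a change often called whitening, and to attract macrophages.

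Levels are CPM, the usual depth-scaled unit of RNA sequencing, adjusted with trimmed mean of M-values (TMM) factors, and fold changes are log2 values of HFD over chow with a standard error (SE). A gene was called at an adjusted p of 0.05 or less in edgeR's quasi-likelihood test, with Benjamini-Hochberg adjustment over all 17717 genes, and every adjusted p below is from that test unless another is named. The 4 chow libraries held 39585167 to 43884449 counts and the 5 HFD libraries 59976980 to 104874625. The library numbers of the 2 diets lay in separate blocks with no overlap, so diet cannot be told apart from whatever else differed between those blocks of libraries. The scaling mattered: the 10 most abundant genes of a library took 38.4 to 44.9% of chow counts and 27.1 to 31.7% of HFD counts. The TMM factors were 0.795 to 0.897 on chow and 1.07 to 1.33 on HFD. With library totals in place of TMM the median log2 fold change of all genes rose from 0.018 by 0.475, so every change below is relative to the bulk of genes. Counts of genes that rose or fell are under TMM unless library totals are named. Many of the lower calls are lost under library totals. Because the tissue was sequenced whole, fewer cells of a type and less RNA per cell cannot be told apart.

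Transcripts of neighbouring tissues varied between libraries. Skeletal muscle markers summed to 8854 CPM in HFD replicate 1, to 40.3 to 59.0 CPM in the other 4 HFD libraries and to 557 to 3390 CPM on chow, and 0 of 26 were called. Without HFD replicate 1, 21 of the 26 were called lower, and without HFD replicates 1 and 5 together 17 were. Liver transcripts were highest in HFD replicate 5, where 25 hepatocyte genes summed to 344 CPM, against 57.6 to 136 CPM in the other HFD libraries and 104 to 129 CPM on chow. Rbp4, the 1 gene of the list called lower, read 51.5 to 75.9 CPM on chow and 27.5 to 39.3 CPM on HFD. Much of the chow sum was thus Rbp4, while Alb, albumin, read at most 0.816 CPM on chow. The brown adipocyte markers, which are 15 genes including Ucp1, summed to 5203 to 8782 CPM on chow and 4770 to 7619 CPM on HFD, with overlapping ranges, so the tissue label held in all 9 libraries.

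A large share of the transcriptome differed between the diets. Of 17717 genes, 5685 were called (32.1%), with 2986 higher (16.9%) and 2699 lower (15.2%), and 1490 of them (8.41%) changed at least 2-fold, of which 1057 were higher and 433 lower. In 24.8% of genes the libraries of the 2 diets did not overlap, with every HFD library above every chow library in 13.6% and below in 11.1%. Leaving out each of the 9 libraries in turn, 3888 genes (21.9%) were called every time. The balance of direction depended on the scaling, since library totals called 10497 of the 17717 genes higher and 426 lower. Counts of list members under library totals are to be set beside those numbers. All 2986 higher calls were kept under both scalings, but only 425 of the 2699 lower calls (2.4% of the genes tested) were. Library totals raised the median log2 fold change by 0.475, so this does not show that the rises are firmer than the drops. Among protein-coding genes drops were commonest at high levels: of the 57 such genes with a mean of at least 1000 CPM, 29 were called lower and 5 higher, and their median log2 fold change was -0.35 under TMM and 0.12 under library totals. Of the 2747 protein-coding genes under 1 CPM, 501 were called higher and 103 lower, with a median of 0.54 under TMM.

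**Figure D1:**
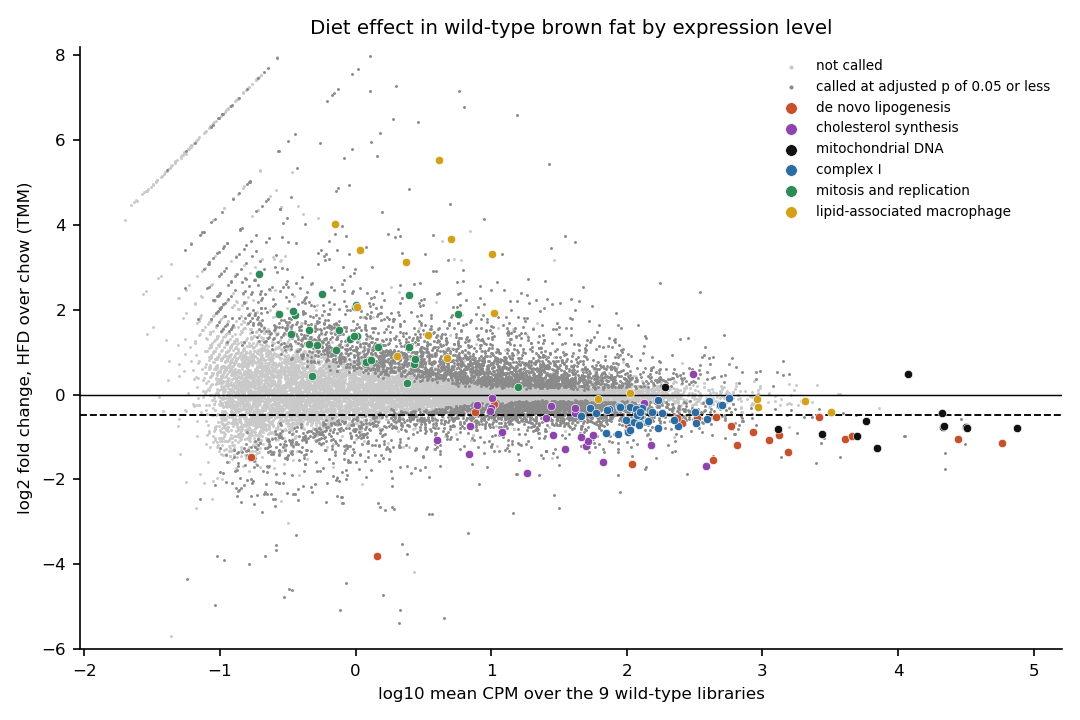
Log2 fold change of HFD over chow in wild-type brown fat (vertical axis, TMM scaling) against the log10 mean CPM of the 9 wild-type libraries (horizontal axis), 1 point per gene, with 6 gene lists in colour. The dashed line lies 0.475 below 0 and marks the level that counts as no change under library totals: most lipid synthesis genes sit below both lines, complex I genes sit around the dashed one, and 23 genes lie outside the plotted range of -6 to 8.2.

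The enzymes that build fatty acids fell together. Of the 22 genes of de novo lipogenesis, 19 were called lower and none higher, with a median log2 fold change of -0.96 against 0.018 for all genes. Under library totals the median was -0.50 and 12 were still called lower. Scd1, stearoyl-CoA desaturase 1, which puts the first double bond into palmitate and stearate, is given the identifier ENSMUSG00000037071.4 in the files. It stood at 77130, 77590, 75920 and 102300 CPM on chow and at 45620, 36720, 37950, 33570 and 36220 CPM on HFD. No HFD library reached the lowest chow library, and chow replicate 4 stood above the other 3 (log2 fold change -1.13, SE 0.15, adjusted p = 5.21e-05). As a share of all counts, which needs no scaling factor, Scd1 took 6.43 to 8.13% on chow and 3.58 to 5.29% on HFD (exact permutation test, two-sided p = 0.0159, the smallest that 4 against 5 libraries allow, and 0.0254 adjusted over 24 library measures). Fasn, fatty acid synthase, which assembles palmitate from malonyl-CoA, took 2.96 to 3.66% of counts on chow and 1.74 to 2.54% on HFD, with the same exact p of 0.0159. Its CPM values were 33010, 38970, 43180 and 38680 on chow and 21400, 15450, 13100, 23790 and 19900 on HFD, again without overlap (log2 fold change -1.04, SE 0.17, adjusted p = 0.00037).

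The steps before and after fatty acid synthase moved the same way. Acly, which makes cytosolic acetyl-CoA from citrate, went from 5692 ± 1320 CPM on chow (mean ± SD, n = 4) to 2752 ± 989 CPM on HFD (n = 5). Acss2, which makes acetyl-CoA from acetate, read 574, 631, 676 and 834 CPM on chow and 268, 192, 182, 269 and 258 CPM on HFD (log2 fold change -1.54, SE 0.16, adjusted p = 5.93e-06). The chow values were 2.902-fold higher in the fit and did not overlap with those on HFD. Acaca and Acacb, the acetyl-CoA carboxylases of the cytosol and of the mitochondrial surface, had log2 fold changes of -0.98 and -1.36. Elovl5, an elongase of polyunsaturated fatty acids, read 115, 189, 191 and 208 CPM on chow against 57.6, 56.7, 51.4, 57.8 and 58.8 CPM on HFD, where the 5 libraries differed little from each other (log2 fold change -1.64, SE 0.13, adjusted p = 5.04e-07). Elovl6, which lengthens palmitate to stearate, had -1.08 and Me1, malic enzyme, which supplies NADPH, had -0.89. Scd3, a paralogue of Scd1 at far lower counts, had the steepest drop of the list, from 2.31 to 3.73 CPM to 0.175 to 0.286 CPM (log2 fold change -3.81, SE 0.25, adjusted p = 1.1e-07). Reads shared between Scd paralogues could be divided between them by the authors' counting, so the values of Scd2 (-1.20) and Scd3 are less certain. Srebf1, the gene of SREBP1, fell under TMM (log2 fold change -0.68, SE 0.12, adjusted p = 0.000541) but was not called under library totals.

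Cholesterol synthesis fell with it, with 1 exception. Of 24 genes tested, 18 were called lower and 1 higher, and the median was -0.92 under TMM and -0.43 under library totals, where 13 were called lower and 3 higher. Insig1, the endoplasmic reticulum protein that retains the SREBP escort SCAP and is itself an SREBP target, read 593, 645, 579 and 658 CPM on chow and 227, 175, 196, 189 and 175 CPM on HFD. These ranges are far apart relative to their spread (log2 fold change -1.69, SE 0.10, adjusted p = 6.72e-08). Sqle, squalene epoxidase, read 22.2, 31.04, 35.8 and 34.04 CPM on chow and 9.73, 6.797, 7.44, 8.81 and 9.97 CPM on HFD (log2 fold change -1.85, SE 0.14, adjusted p = 3.66e-07). Fdft1, squalene synthase, went from 88.99 to 122 CPM to 25.1 to 42.03 CPM, Cyp51, lanosterol demethylase, from 46.3 to 59.1 to 19.4 to 24.8 CPM, and Mvd, which makes isopentenyl diphosphate, from 7.49 to 13.5 to 3.21 to 4.63 CPM. All 5 of these genes were lower in every HFD library than in any chow library. Hmgcs1, the HMG-CoA synthase of the cytosol at the head of the same pathway, went the other way. It read 234, 236, 241 and 292 CPM on chow and 335, 402, 358, 356 and 314 CPM on HFD, with every HFD library above every chow library (log2 fold change 0.49, SE 0.08, adjusted p = 0.000238). Srebf2, the main activator of sterol genes, was called lower by -0.31 under TMM but stood at 0.17 under library totals, where it was not called, and was also not called without chow replicates 1 and 2.

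**Figure D2:**
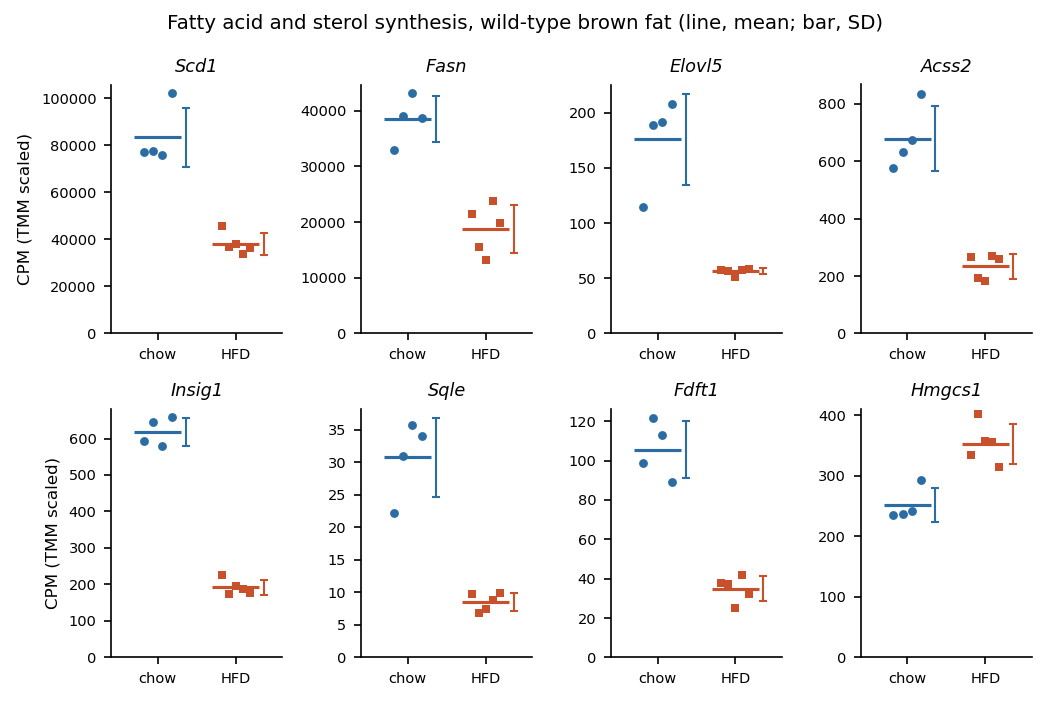
CPM (TMM scaled, linear axes from 0) of 8 genes of fatty acid and sterol synthesis in the 4 chow (circles) and 5 HFD (squares) wild-type libraries, with the mean as a line and the SD as a bar. In 7 of the 8 panels every HFD library lies below every chow library, and in the Hmgcs1 panel every HFD library lies above.

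The bases upstream of 4 genes of fatty acid and sterol synthesis are shown because 3 of them fell while Hmgcs1 rose. They are the 250 bases before the annotated start, from RefSeq on build GRCm38.p6, each written 5′ to 3′ on the gene's own strand, and the deposited counts were made on another build, GRCm39. Capitals mark CCAAT on either strand (written ATTGG on the other), the box bound by NF-Y, a known partner of SREBP, and TCACNCCAC on either strand, a form of the sterol regulatory element.
Insig1 (chr5:28071162-28071411, plus strand): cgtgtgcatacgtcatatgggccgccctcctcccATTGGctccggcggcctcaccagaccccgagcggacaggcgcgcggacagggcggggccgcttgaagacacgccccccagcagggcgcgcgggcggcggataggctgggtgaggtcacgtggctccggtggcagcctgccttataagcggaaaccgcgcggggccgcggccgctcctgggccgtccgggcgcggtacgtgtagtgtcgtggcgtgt
Mvd (chr8:122443423-122443672, minus strand): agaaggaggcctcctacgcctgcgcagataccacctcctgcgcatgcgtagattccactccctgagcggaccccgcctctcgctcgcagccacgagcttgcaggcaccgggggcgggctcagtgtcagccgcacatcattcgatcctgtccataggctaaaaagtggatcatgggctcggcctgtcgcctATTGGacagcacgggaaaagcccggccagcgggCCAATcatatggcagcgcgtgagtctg
Fasn (chr11:120824548-120824797, minus strand): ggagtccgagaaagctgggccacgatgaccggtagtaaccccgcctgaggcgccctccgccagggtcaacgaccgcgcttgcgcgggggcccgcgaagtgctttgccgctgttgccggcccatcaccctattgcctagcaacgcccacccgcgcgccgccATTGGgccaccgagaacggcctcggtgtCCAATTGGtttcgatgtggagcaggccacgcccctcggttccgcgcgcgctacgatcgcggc
Hmgcs1 (chr13:119690101-119690350, plus strand): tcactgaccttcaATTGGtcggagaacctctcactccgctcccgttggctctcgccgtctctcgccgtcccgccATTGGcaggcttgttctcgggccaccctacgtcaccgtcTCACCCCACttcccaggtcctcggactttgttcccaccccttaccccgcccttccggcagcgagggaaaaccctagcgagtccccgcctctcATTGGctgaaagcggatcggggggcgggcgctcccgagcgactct
CCAAT was present upstream of 15 of 17 cholesterol synthesis genes with a promoter in the table (88.2%) and of 10 of 19 lipogenesis genes (52.6%), against 4313 of the 11990 promoters of tested genes. TCACNCCAC occurred in 121 of those 11990 promoters (1.01%). It occurred upstream of 1 of the 17 sterol genes, Hmgcs1, 137 bases before the start, and of none of the 19 lipogenesis genes, and it shared no base with a CCAAT box there. These are matches of letters in 1 window and not measured binding.

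Fatty acid handling was split. Of 22 genes of uptake and activation, 8 fell (36.4%) and 4 rose (18.2%), against 15.2% and 16.9% of all genes. Of 17 genes of triglyceride synthesis, 6 rose (35.3%) and 3 fell (17.6%). Under library totals 3 uptake genes were lower and 9 higher, and 1 gene of triglyceride synthesis was lower and 11 higher. Of all 17717 genes, 426 were lower and 10497 higher there. Acsl5 and Acsl3, acyl-CoA synthetases that activate long-chain fatty acids, fell from 317 to 603 to 63.4 to 187 CPM and from 41.1 to 66.9 to 14.5 to 18 CPM (-1.86 and -1.66), and both stayed lower under library totals. Cd36, the fatty acid translocase of the plasma membrane, rose from 1176 ± 49.7 to 1611 ± 102 CPM (log2 fold change 0.45, SE 0.07, adjusted p = 0.000114). Fabp3, a cytosolic fatty acid-binding protein of heart and brown fat, read 224, 222, 199 and 269 CPM on chow and 523, 646, 363, 555 and 415 CPM on HFD (log2 fold change 1.13, SE 0.16, adjusted p = 8.21e-05). Every HFD library was above every chow library for both genes.

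Within triglyceride synthesis, Gpat3, a glycerol-3-phosphate acyltransferase, rose by 1.39 and Dgat2, which adds the last acyl chain, by 0.53, while Agpat2, which makes phosphatidic acid, had -0.82. Cpt1a, the liver form of the carnitine transferase that admits fatty acids to mitochondria, rose from 7.38 to 11.1 to 19.9 to 33.7 CPM (log2 fold change 1.45, SE 0.16, adjusted p = 1.14e-05), the only rise among 26 genes of beta-oxidation, of which 5 fell and 20 were not called. The 5 drops were 19.2% of the beta-oxidation list, against 15.2% of all genes. Under library totals 16 of the 26 were called higher and 1 lower, against 10497 and 426 of all 17717 genes. Abcd2, a peroxisomal transporter of very-long-chain acyl-CoA, rose by 1.65. Of 22 lipolysis genes, 9 fell (40.9%) and 3 rose (13.6%) under TMM, against 15.2% and 16.9% of all genes. Under library totals 11 of them were called higher, Prkaca and Prkacb included, and 2 lower, Hcar1 included. Hcar1, the lactate receptor that restrains lipolysis, read 27.2, 25.5, 16.98 and 32.3 CPM on chow and 8.82, 4.13, 11.98, 5.19 and 4.99 CPM on HFD. Its groups did not overlap (log2 fold change -1.86, SE 0.32, adjusted p = 0.000394).

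Dbi itself, which encodes the acyl-CoA-binding protein that the study deletes, was intact in both wild-type groups and read 1104, 1031, 1003 and 949 CPM on chow and 701, 690.3, 658, 795 and 662 CPM on HFD. It was lower in every HFD library (log2 fold change -0.54, SE 0.10, adjusted p = 0.000846), but under library totals the log2 fold change was -0.08 and the call was lost.

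Transcripts of the respiratory chain were lower relative to other genes, and much of this depended on the scaling. Of the 13 protein genes of mitochondrial DNA, 11 were called lower and none higher, with a median of -0.77 under TMM and -0.30 under library totals, where 9 stayed lower and 2 were higher. Together they took 23.4 to 29.0% of counts on chow and 19.1 to 23.6% on HFD, with ranges that overlapped by 1 pair of libraries (exact permutation test, two-sided p = 0.0317, adjusted 0.0448 over 24 measures). mt-Co1, a core subunit of cytochrome c oxidase, read 89560, 96870, 94030 and 116200 CPM on chow and 57900, 61220, 44760, 64460 and 56910 CPM on HFD (log2 fold change -0.80, SE 0.14, adjusted p = 0.000431). mt-Co3 (log2 fold change 0.48, SE 0.32, adjusted p = 0.267) and mt-Co2 (log2 fold change 0.17, SE 0.20, adjusted p = 0.534), subunits of the same complex, were not called. With offsets for transcript GC content and length, an alternative chosen after the data were seen, the list's median was -0.43.

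Nuclear genes followed the same order. Of 36 complex I subunits, 27 fell and none rose under TMM, with a median of -0.46, but under library totals the median was 0.00, with 8 lower and 5 higher. Of 39 genes of complexes II to V, 24 fell and none rose (median -0.38), against 4 lower and 7 higher under library totals (median 0.08). Cox6c, a small subunit of complex IV, read 733, 743, 694 and 767 CPM on chow and 329, 389, 291, 404 and 385 CPM on HFD (log2 fold change -1.03, SE 0.09, adjusted p = 2.32e-06) and stayed lower under both scalings. So did Ndufa1 and Ndufa5 of complex I, with -0.92 and -0.90, and Cox7b with -0.88. In the pyruvate and citric acid cycle list, 15 of 27 fell and 2 rose (median -0.35, 0.11 under library totals). Mpc1, a subunit of the pyruvate carrier of mitochondria, went from 857 ± 88.5 to 450.4 ± 73.3 CPM, and Pcx, pyruvate carboxylase, from 785 ± 60.4 to 495 ± 33.5 CPM, both lower under either scaling. Idh2, the NADP-dependent isocitrate dehydrogenase of mitochondria, rose from 133 to 158 to 238 to 326 CPM (log2 fold change 0.93, SE 0.08, adjusted p = 1.77e-06). Of 20 genes of branched-chain amino acid breakdown, 12 fell and 1 rose under TMM, and none of the 12 stayed lower under library totals. Proteasome subunits, 30 in all, had 25 drops and no rise (median -0.37), but 2 drops and 12 rises under library totals (median 0.10). Over all 17717 genes library totals gave 426 drops, 10497 rises and a median of 0.49.

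The thermogenic programme as a list did not move in 1 direction. Of 28 genes, 3 rose, 4 fell and 21 were not called, a share of calls below the 32.1% of all genes, and the median was -0.02. Ucp1 read 1715, 2350, 3291 and 1796 CPM on chow and 2185, 3108, 1695, 3337 and 3053 CPM on HFD. The groups overlapped and the gene was not called (log2 fold change 0.23, SE 0.22, adjusted p = 0.471). Dio2, which makes active thyroid hormone, had 93.8 ± 48.4 CPM on chow and 105 ± 57.5 CPM on HFD (log2 fold change 0.17, SE 0.38, adjusted p = 0.773). Ppargc1a, the coactivator of mitochondrial genes, had 58.7 ± 10.6 and 64.96 ± 23.8 CPM (log2 fold change 0.15, SE 0.26, adjusted p = 0.705), and Adrb3, the beta-3 adrenergic receptor, 159 ± 45.8 and 196 ± 21.1 CPM (log2 fold change 0.30, SE 0.16, adjusted p = 0.164). Under library totals Ucp1, Ppargc1a and Adrb3 were called higher, and the signs of Dio2, Ppargc1a and Adrb3 turned when some libraries were left out. Adrb3 was also called higher without chow replicate 4 (0.47, adjusted p = 0.0301).

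Other brown-fat genes did fall. Cidea, a lipid droplet protein of brown adipocytes, read 864, 942, 860.5 and 839 CPM on chow and 505, 590.5, 406, 733 and 629 CPM on HFD, without overlap (log2 fold change -0.61, SE 0.12, adjusted p = 0.00159), but was not called under library totals (-0.16). Elovl3, an elongase induced by cold, read 52.4, 98.5, 113 and 55.7 CPM on chow and 30.9, 32.4, 16.8, 39.8 and 36.5 CPM on HFD (log2 fold change -1.35, SE 0.28, adjusted p = 0.00193). Kcnk3, a potassium channel of brown adipocytes, went from 291 to 417 to 123 to 216 CPM (log2 fold change -0.99, SE 0.19, adjusted p = 0.00125), and Elovl3 and Kcnk3 were lower under both scalings. Among the rises were Ckb, brain creatine kinase (0.82), Bmp8b, a thermogenic signal of mature brown fat (1.74, with overlapping groups and no call in limma-voom), and Fgf21, a hormone of stressed or cold-exposed fat, which went from 0.111 to 0.574 to 0.714 to 1.33 CPM (log2 fold change 1.48, SE 0.38, adjusted p = 0.0072).

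**Figure D3:**
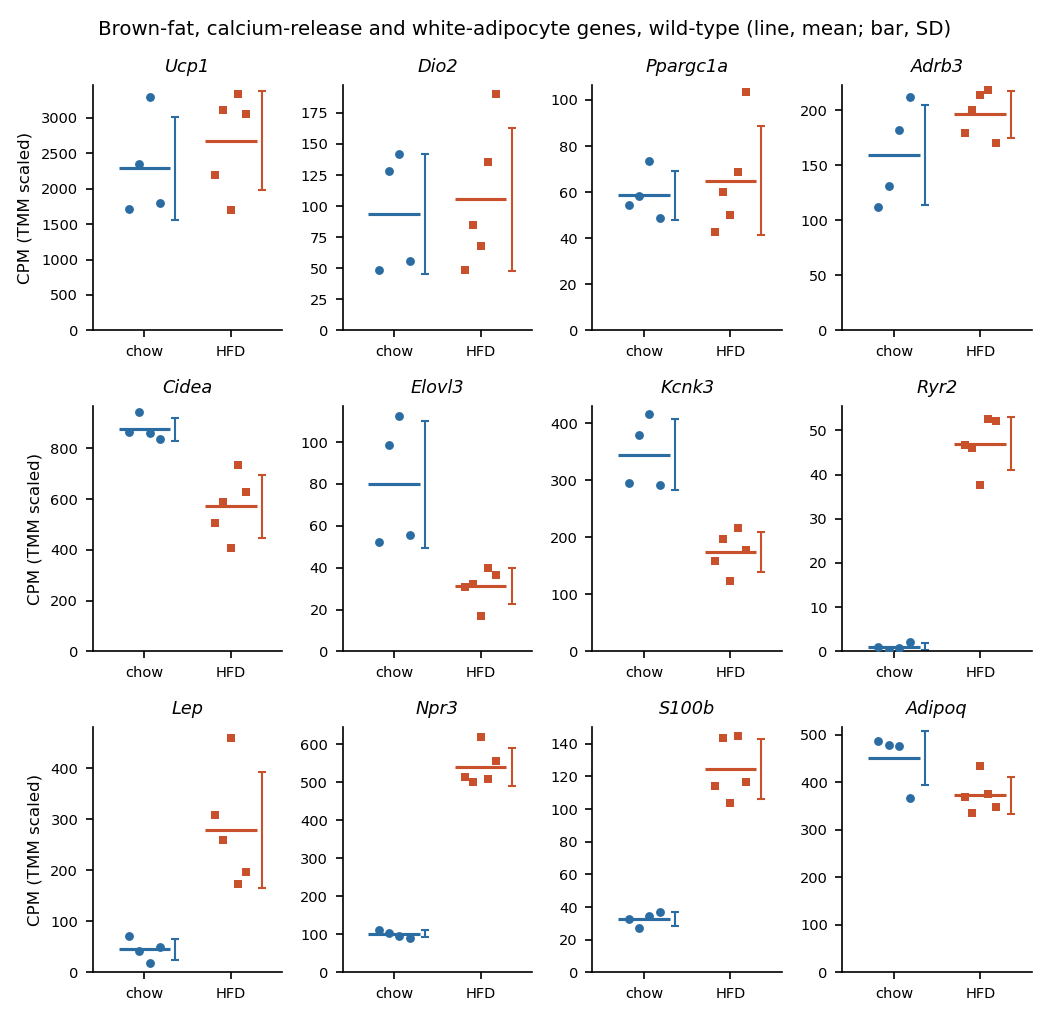
CPM (TMM scaled, linear axes from 0) of 12 adipocyte genes in the 4 chow (circles) and 5 HFD (squares) wild-type libraries, with the mean as a line and the SD as a bar. Ucp1, Dio2, Ppargc1a, Adrb3 and Adipoq overlap between diets, Cidea, Elovl3 and Kcnk3 are lower on HFD (Cidea not under library totals), and Ryr2, Lep, Npr3 and S100b are higher without overlap.

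Among the clearest changes of the whole comparison was Ryr2, the ryanodine receptor that releases calcium from the sarcoplasmic reticulum of heart muscle. It read 1.099, 0.301, 0.863 and 2.12 CPM on chow and 46.6, 45.9, 37.7, 52.5 and 52.1 CPM on HFD (log2 fold change 5.43, SE 0.38, adjusted p = 2.04e-07). Skeletal muscle markers summed to 40.3 to 59.0 CPM in HFD replicates 2 to 5, which read 37.7 to 52.5 CPM of Ryr2, and to 557 to 3390 CPM on chow, which read 0.301 to 2.12 CPM. S100b, a calcium-binding protein of glia and adipocytes, read 32.96, 26.9, 34.2 and 36.8 CPM on chow and 114, 144, 104, 145 and 116 CPM on HFD (log2 fold change 1.93, SE 0.13, adjusted p = 1.8e-07). Of the 12 Schwann cell and nerve genes tested, 3 were called higher (25.0%, against 16.9% of all genes) and 9 were not called. The 3 were S100b, Tubb3 and Uchl1, the latter pair at means under 1 CPM. Gamt, the second enzyme of creatine synthesis, rose by 1.07.

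Genes typical of white adipocytes rose. Of 12 tested, 6 were called higher and 2 lower, with a median of 1.35 that was 0.82 without HFD replicate 3, where the counts of calls were also 6 and 2. The 2 lower calls, Retn and Igfbp3, were lost under library totals. Lep, leptin, the hormone that white fat secretes in proportion to its mass, read 70.4, 41.5, 19.1 and 49.3 CPM on chow and 308, 258, 459.6, 173 and 197 CPM on HFD, where replicate 3 was highest (log2 fold change 2.63, SE 0.57, adjusted p = 0.00256). Npr3, the clearance receptor for natriuretic peptides, read 113, 104, 96.8 and 91.6 CPM on chow and 515, 499, 619.8, 507 and 555 CPM on HFD (log2 fold change 2.41, SE 0.24, adjusted p = 4.76e-06). Mest, an imprinted gene linked to adipocyte enlargement in mice, went from 0.473 to 1.36 CPM to 4.49 to 46.6 CPM, and its highest value came again from replicate 3 (log2 fold change 4.15, SE 0.74, adjusted p = 0.000568), though limma-voom did not call it. Nnat, neuronatin, read 8.65, 3.23, 2.45 and 2.63 CPM on chow and 53.3, 13.9, 122, 19.6 and 24.03 CPM on HFD (log2 fold change 3.46, SE 0.65, adjusted p = 0.000848), and Sncg, gamma-synuclein, an abundant protein of white adipocytes, read 7.07, 4.25, 3.53 and 8.04 and 87.2, 30.1, 154, 29.6 and 47.1 CPM (log2 fold change 3.60, SE 0.53, adjusted p = 0.000132). The homeobox gene Hoxc8, a mark of white depots in mice, rose from 2.81 to 7.41 to 8.82 to 15.9 CPM (adjusted p = 0.00514), a call lost without chow replicates 1 and 2. Within each of these genes the lowest HFD library was above the highest chow library. Sncg was not a member of the list, and the remaining list gene called higher had overlapping groups.

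Secreted factors rose more often than they fell. Of 27 adipokines and brown-fat hormones, 13 rose (48.1%) and 5 fell (18.5%), against 16.9% and 15.2% of all genes. Under library totals 17 were higher and 2 lower. Adipoq, adiponectin, was not called (log2 fold change -0.28, SE 0.11, adjusted p = 0.0735), and its sign turned under library totals (0.20). It was called lower in DESeq2 (-0.28, adjusted p = 0.0443), without chow replicate 4 (-0.37, edgeR's adjusted p = 0.0209) and without HFD replicate 3 (-0.34, adjusted p = 0.0379). Gdf15, a stress hormone that acts on the hindbrain, was nearly absent on chow at 0.0563, 0, 0.0557 and 0.121 CPM and read 7.53, 10.5, 3.78, 1.41 and 2.47 CPM on HFD (adjusted p = 5.43e-05, and 0.0608 at most over the alternatives, in limma-voom). Rarres2, chemerin, rose from 6.88 to 10.3 to 26.7 to 71.96 CPM (2.26), Epdr1, a secreted protein of brown adipocytes, from 0.794 to 1.49 to 4.21 to 10.2 CPM, and Apln, apelin, from 1.97 to 2.505 to 3.44 to 8.25 CPM. Cfd, adipsin, fell from 152 to 332 to 38.8 to 120.2 CPM (log2 fold change -1.71, SE 0.38, adjusted p = 0.00297), and Nampt, an enzyme of NAD synthesis that is also secreted, fell by 0.93 on the log2 scale.

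Insulin-pathway genes showed no common direction, with 3 higher, 4 lower and 16 not called of 23. Both shares were near those of all genes, of which 16.9% were higher and 15.2% lower. Irs2 and Irs1, the adaptors of the insulin receptor, were called lower under TMM (-1.15 and -0.75), and chow replicate 1 lay below the highest HFD library for both. The call of Irs1 was lost under library totals. Slc2a4, the insulin-responsive glucose transporter, fell from 448 ± 51.3 to 286 ± 46.7 CPM, a call lost under library totals, while Hk1, hexokinase 1, rose by 1.29. Glul, glutamine synthetase, read 1519, 2306, 2592 and 2099 CPM on chow and 734, 878, 539.9, 961 and 716 CPM on HFD (log2 fold change -1.48, SE 0.16, adjusted p = 1.1e-05), and Phgdh, the first enzyme of serine synthesis, rose from 1.75 to 5.099 to 11.03 to 27.6 CPM (log2 fold change 2.47, SE 0.35, adjusted p = 0.000102), with Psat1, the next enzyme, at 1.65.

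Macrophage transcripts were higher on HFD. Of 18 markers, 13 rose and none fell, with a median of 1.07, and their summed level went from 86.4 to 96.0 CPM on chow to 132 to 303 CPM on HFD (exact permutation test, two-sided p = 0.0159, adjusted 0.0254). Csf1r, the receptor for the macrophage growth factor CSF1, read 9.97, 12.1, 9.96 and 10.8 CPM on chow and 23.6, 17.5, 31.8, 16.4 and 23.4 CPM on HFD (log2 fold change 1.07, SE 0.18, adjusted p = 0.000405). Adgre1, a surface marker of mouse macrophages, rose by 1.52, and Cd68, a lysosomal marker, by 1.84. Of the resident-type markers in the list, Mrc1 rose from 11.01 ± 0.789 to 22.1 ± 6.74 CPM and Folr2 by 1.32, while Cd163, Timd4 and Lyve1 were not called.

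Markers of lipid-associated macrophages, the cells that take up lipid from dying adipocytes, were split. Of 17 tested, 10 rose and 2 fell, and the 2 that fell, Fabp4 and Ctsb, are also made by adipocytes and were not called under library totals, where their signs turned. Under TMM the summed level of the 17 was lower on HFD, at 6240 to 7380 CPM, against 7430 to 8550 CPM on chow (exact permutation test, two-sided p = 0.0159, adjusted 0.0254). Per library total the order turned, with 5908 to 7230 CPM on chow and 7225 to 9039 CPM on HFD. Fabp4 alone read 3726 ± 147 CPM on chow and 2829 ± 293 CPM on HFD under TMM. Lgals3, galectin-3, read 1.69, 2.08, 1.45 and 1.63 CPM on chow and 11.2, 10.2, 39.2, 7.34 and 17.1 CPM on HFD (log2 fold change 3.31, SE 0.47, adjusted p = 9.94e-05). Gpnmb, a glycoprotein of lipid-laden macrophages, read 0.704, 0.411, 0.779 and 0.756 CPM on chow and 5.15, 4.68, 12.8, 4.78 and 15.2 CPM on HFD (log2 fold change 3.68, SE 0.57, adjusted p = 0.000201). Mmp12, macrophage elastase, read 0.338, 0.0274, 0.139 and 0.121 CPM on chow and 5.22, 5.399, 16.4, 1.96 and 7.72 CPM on HFD (adjusted p = 0.000188), a call that limma-voom did not make. Itgax, CD11c, had 3.13 and Trem2, the lipid receptor, 2.06. In all 5 genes no HFD library reached down to the chow range, and the HFD libraries themselves spread several-fold, with replicate 3 or 5 highest.

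Some B-cell and chemokine genes were also higher. Ighm, the immunoglobulin mu chain, read 7.58, 3.97, 3.42 and 2.84 CPM on chow and 41.5, 38.9, 74.3, 67.3 and 77.8 CPM on HFD (log2 fold change 3.75, SE 0.35, adjusted p = 2.71e-06), but of the other 11 B-cell genes only Cd22, Cd79a and Iglc2 were called, all at means under 1 CPM. Of 26 chemokine and cytokine genes, 10 rose and none fell (median 0.94). Ccl6 and Ccl9, chemokines of mouse myeloid cells, rose by 1.56 and 2.07, and Ccl2, the monocyte chemokine, by 2.44 with overlapping groups. None of these 3 chemokines was called in limma-voom or without chow replicates 1 and 2. Of 17 antigen presentation genes, 6 rose (35.3%) and 1 fell (5.9%), against 16.9% and 15.2% of all genes. The rises were class II genes such as Cd74 (0.89) and H2-Aa (0.72) and their activator Ciita. T-cell and NK-cell genes had 2 rises among 12, a share near the 16.9% of all genes.

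Genes of cell division rose in 24 of 27 cases, with none lower and a median of 1.38, the largest share of calls of any list. Levels were low throughout. Top2a, the topoisomerase of dividing cells, read 0.9297, 0.822, 0.6401 and 0.665 CPM on chow and 4.19, 3.98, 4.51, 2.101 and 4.65 CPM on HFD (log2 fold change 2.34, SE 0.36, adjusted p = 0.000189). Cdk1, the kinase that drives mitosis, went from 0.0907 to 0.225 to 0.581 to 1.11 CPM (log2 fold change 2.37, SE 0.36, adjusted p = 0.000184), and Mki67, the proliferation antigen, from 1.08 to 3.72 to 4.04 to 10.8 CPM (log2 fold change 1.90, SE 0.43, adjusted p = 0.00312). None of the 3 genes overlapped between diets. Which cells expressed these genes cannot be told from whole tissue, and macrophage, endothelial and fibroblast markers were higher in the same libraries.

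Matrix and endothelial transcripts were also higher. Of 22 collagen genes, 13 rose and 2 fell (median 0.72), and of 27 other matrix and fibrosis genes, 19 rose and 1 fell (median 0.86). The lower calls of Col4a3 and Postn were lost under library totals. Col18a1, the basement membrane collagen that yields endostatin, read 14.4, 16.8, 15.03 and 17.8 CPM on chow and 59.9, 38.5, 91.7, 37.9 and 51.3 CPM on HFD (log2 fold change 1.80, SE 0.23, adjusted p = 3.53e-05). Sparc, a collagen-binding glycoprotein of fat, rose from 407 ± 53.3 to 739 ± 103 CPM, and Lox, which cross-links collagen, from 36.8 ± 8.04 to 77.8 ± 8.397 CPM. Col6a6, a collagen VI chain, fell against the trend from 2.36 to 4.25 to 0.231 to 0.779 CPM (log2 fold change -2.71, SE 0.32, adjusted p = 1.84e-05).

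Of 20 endothelial genes, 13 rose and none fell (median 0.54), and the summed level was 715 to 841 CPM on chow and 908 to 1006 CPM on HFD. Pecam1, the junction protein CD31, read 58.1, 64.9, 62.4 and 70.1 CPM on chow and 110.5, 115, 110.1, 94.7 and 94.5 CPM on HFD (log2 fold change 0.72, SE 0.09, adjusted p = 2.02e-05). Eng, endoglin, rose by 0.65 and Vwf, von Willebrand factor, by 0.99. Of 14 pericyte and smooth muscle genes 2 rose (14.3%), a share below the 16.9% of all genes. Of 15 fibroblast and preadipocyte genes 8 rose, among them Cd34 (1.02), a marker of progenitors and endothelium.

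**Figure D4:**
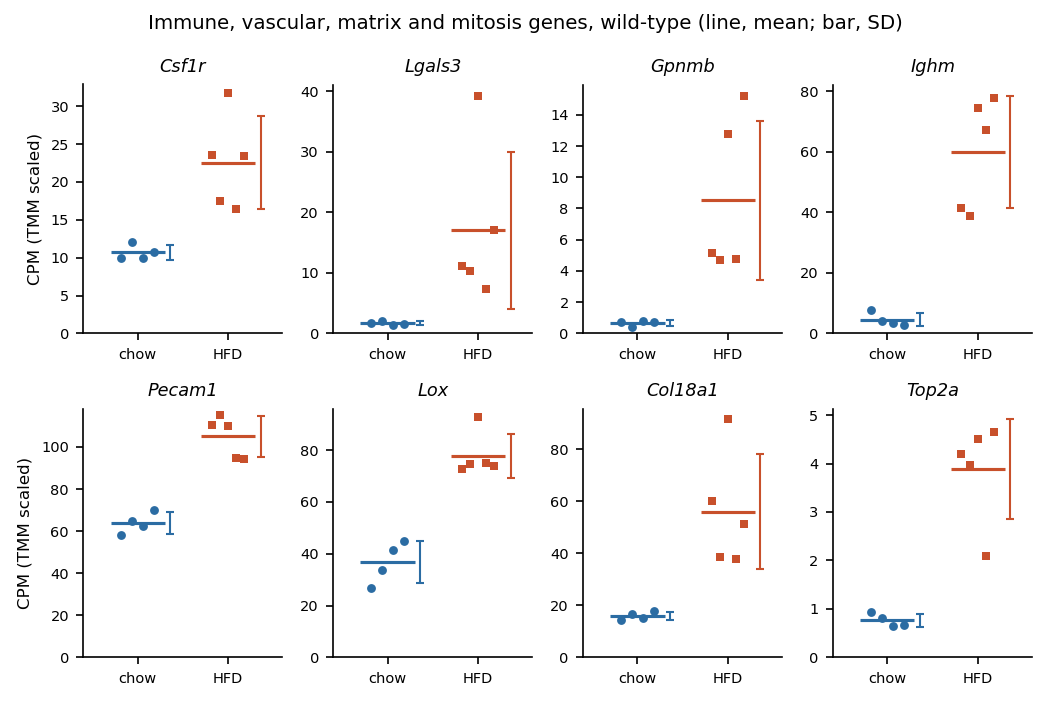
CPM (TMM scaled, linear axes from 0) of 8 genes of macrophages (Csf1r, Lgals3, Gpnmb), B cells (Ighm), endothelium (Pecam1), matrix (Lox, Col18a1) and mitosis (Top2a) in the 4 chow (circles) and 5 HFD (squares) wild-type libraries, with the mean as a line and the SD as a bar. In every panel all 5 HFD libraries lie above all 4 chow libraries, and the HFD libraries spread more widely.

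The HFD libraries were not alike, and 1 of them led on most of these genes. HFD replicate 3 had the highest HFD level in all 13 collagens that rose, in 17 of 19 matrix genes, 12 of 13 macrophage genes, 18 of 24 mitosis genes and all 6 white-adipocyte genes. It had the lowest HFD level in all 27 complex I genes that fell, in all 11 mitochondrial-DNA genes and in 14 of 19 lipogenesis genes. Over all genes the figure was 53.0% of the 2986 higher calls and 48.8% of the 2699 lower calls, against 6.52 to 19.4% for each of the other HFD libraries. HFD replicate 3 also had the smallest HFD total, 59976980 counts, and the largest TMM factor, 1.33, and the part of either in these ranks was not tested. Without that library 2522 genes were called higher and 2270 lower. The list counts then were 10 collagens, 15 matrix genes, 11 macrophage genes and 22 mitosis genes higher, and 23 complex I, 9 mitochondrial-DNA and 18 lipogenesis genes lower.

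**Figure D5:**
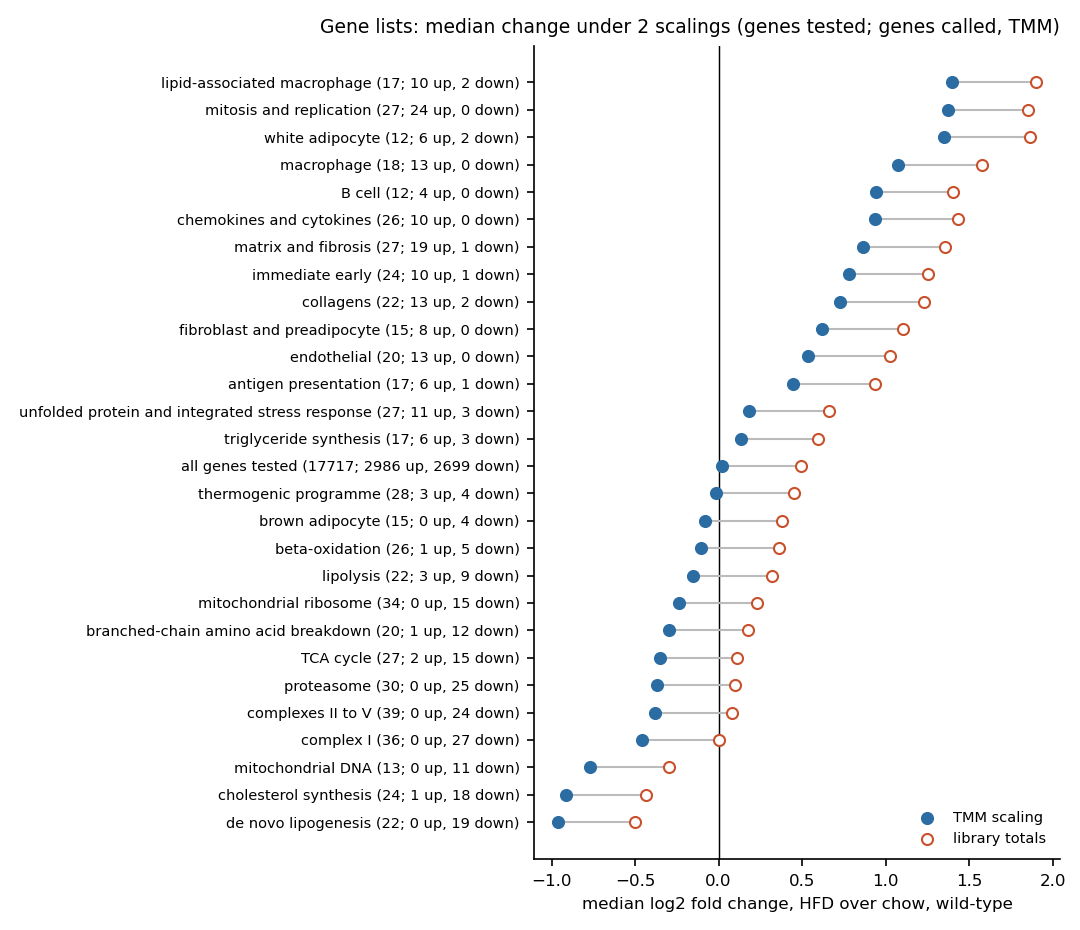
Median log2 fold change of HFD over chow for 27 gene lists and for all genes tested, under TMM (filled) and library totals (open), with the number of genes tested and called under TMM beside each name. The lists from de novo lipogenesis to mitochondrial DNA stay below 0 under both scalings, the respiratory, proteasome, TCA and amino acid lists cross 0, and the immune, mitosis and matrix lists stay above.

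Immediate early and stress genes leaned upward. Of 24 immediate early genes, 10 rose and 1, Nr4a1, fell, a call lost under library totals and without HFD replicate 3. Jund and Jun, members of the AP-1 complex, rose from 39.6 to 50.7 to 86.8 to 108 CPM (log2 fold change 1.15, SE 0.10, adjusted p = 1.83e-06) and from 37.5 to 69.9 to 86 to 145 CPM. Atf3, a stress-induced repressor, read 1.61, 1.56, 2.03 and 3.14 CPM on chow and 6.95, 7.38, 7.04, 6.19 and 9.502 CPM on HFD, without overlap (log2 fold change 1.83, SE 0.20, adjusted p = 1.01e-05), and Klf6 rose by 1.02. Immediate early genes respond to stimuli within minutes, and the time of dissection is not given in the sources used here. In the unfolded protein and integrated stress response list 11 of 27 rose and 3 fell, but under library totals 23 were higher and none lower. There 10497 of all 17717 genes were higher and 426 lower. Of 22 circadian genes, 4 were higher (18.2%) and 5 lower (22.7%), against 16.9% and 15.2% of all genes. Under library totals 10 of them were higher and none lower, against the same 10497 and 426 of 17717 genes. The circadian list held Nfil3, a repressor of clock output, at 0.87 and Nr1d1, REV-ERB alpha, at -0.74, the latter not called under library totals.

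The smallest adjusted p-values, apart from 1 predicted gene, belonged to Echdc1, Esr1 and Insig1. Echdc1, a cytosolic decarboxylase that removes ethylmalonyl-CoA, a by-product of fatty acid synthesis, read 305, 338, 349 and 366 CPM on chow and 134, 138, 115, 153 and 138 CPM on HFD (log2 fold change -1.32, SE 0.08, adjusted p = 6.72e-08). Esr1, oestrogen receptor alpha, read 54.04, 59.9, 55.5 and 42.9 CPM on chow and 11.6, 10.02, 10.8, 9.29 and 9.47 CPM on HFD (log2 fold change -2.38, SE 0.14, adjusted p = 6.72e-08). Neither showed overlap, and both were chosen after their values were seen, as were Car12, Cdh9, Slc6a13, Wwc1, Pimreg, Gpx8 and Sncg. Gpx8, a peroxidase of the endoplasmic reticulum, fell from 36.5 to 41.1 to 9.65 to 11 CPM. Car12, a carbonic anhydrase of the cell surface, read 0.197, 0.0274, 0.139 and 0.0302 CPM on chow and 12.6, 11.9, 7.404, 14.3 and 9.66 CPM on HFD (adjusted p = 4.01e-06). Slc6a13, a transporter of GABA and taurine, went from 0.139 to 0.6198 to 5.31 to 15.99 CPM, Cdh9, a cadherin, from 0.278 to 0.514 to 2.59 to 4.28 CPM, Wwc1, the scaffold KIBRA of the Hippo pathway, from 0 to 0.0835 to 1.11 to 1.58 CPM, and Pimreg, a mitotic regulator, from 0 to 0.0907 to 0.867 to 1.59 CPM.

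Among the largest drops, Cyp1a1, the cytochrome P450 induced through the aryl hydrocarbon receptor, read 1.47, 1.51, 2.67 and 1.57 CPM on chow and 0.0839, 0.0898, 0.0376, 0.116 and 0.0714 CPM on HFD (log2 fold change -4.45, SE 0.35, adjusted p = 5.69e-07). Phyhip went from 2.198 to 5.96 to 0.0817 to 0.252 CPM. Irf4, a transcription factor of immune cells that also acts in thermogenic fat of mice, read 7.69, 25.8, 27.1 and 49.7 CPM on chow and 4.73, 5.45, 3.38, 3.82 and 2.66 CPM on HFD (log2 fold change -2.78, SE 0.38, adjusted p = 6.25e-05), without overlap. H2ac19, a replication-dependent histone gene, read 6.71, 5.42, 3.73 and 2.66 CPM on chow and was at 0 in 4 of the 5 HFD libraries (adjusted p = 0.0227), a call that DESeq2 did not make. Histone genes have near-identical copies, so this value is uncertain. In absolute CPM, the rises were led by Ahnak, Tns1, Sptbn1, Prelp, Npr3, Cd36, Actb, Sparc, Dgat2 and Trp53inp2. Prelp, a matrix proteoglycan, went from 269 ± 51.6 to 719 ± 54.1 CPM (log2 fold change 1.42, SE 0.15, adjusted p = 8.22e-06), and Actb, beta-actin, often used as a reference gene, from 754 ± 49.4 to 1119 ± 124 CPM (log2 fold change 0.57, SE 0.09, adjusted p = 0.000217).

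The 12 largest fitted rises of protein-coding genes were all liver transcripts, such as fibrinogen and major urinary protein genes, and all 12 were highest in HFD replicate 5, at 4.2 to 14.4 CPM. The other 4 HFD libraries held 0 to 1.94 CPM of each and the chow libraries at most 0.0822 CPM, with 7 of the 12 at 0 in every chow library, so no fold is given for them. Alb, albumin, read 0.0845, 0.274, 0 and 0.816 CPM on chow and 9.71, 7.85, 14.2, 0.465 and 106 CPM on HFD, with overlap (log2 fold change 6.59, SE 1.78, adjusted p = 0.01). In the hepatocyte list 18 of 25 were called higher and 1 lower. The higher calls were 7 without HFD replicate 5, and 0 without HFD replicates 1 and 5 together or without chow replicates 1 and 2. How liver RNA came into the libraries was not tested.

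The knockout mice, whose libraries are separate, gave another reading of the diet under the same order of library numbers. There 4579 of 17717 genes were called (25.8%). Of the 5685 genes called in wild-type, 5389 (94.8%) had the same sign in the knockout, against 68.7% of the genes not called in wild-type, and 3047 (53.6%, and 66.5% of the knockout's calls) were called in the same direction. Ryr2 had 5.43 in wild-type and 5.92 in the knockout, Sqle -1.85 and -1.41, Esr1 -2.38 and -2.12, and Ighm 3.75 and 4.57. A difference of the diet effect between genotypes was called for 16 genes (0.0903%), 11 of them called in wild-type, and 1834 genes had an unadjusted p under 0.05. Insig1 fell less in the knockout, at -0.78, and the difference was 0.91 (SE 0.15, adjusted p = 0.0377). Dbi, deleted in brown adipocytes of the knockout, had 0.40 there, and the difference was 0.94 (SE 0.15, adjusted p = 0.0377). For Lrrc8d, a subunit of the volume-regulated anion channel, the diet effects were 0.30 and -0.19, for Slc3a2, the heavy chain of amino acid transporters, 0.34 and -0.59, and for Gulp1, an adaptor of engulfment receptors, -0.61 and -2.07, each with a called difference. Leaving out single libraries moved the count of called differences between 0 and 33.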

How the data were processed

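Total RNA from brown adipose tissue was sequenced from TruSeq libraries, per the labels' protocols. The deposited table holds raw whole-number counts per gene for 17 libraries. The submitters' processing notes name STAR 2.7.8a, RSEM 1.3.0, FastQC, DESeq and build GRCm39, with no order. RSEM gives estimated counts, so the whole numbers may be rounded, and whether counting used strand is not given in the sources used here. Nothing was removed as contamination, and no row without a gene name was present.

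Genes were filtered with edgeR's filterByExpr, scaled with TMM and fitted in edgeR 4.0.16 (R 4.3.3) by quasi-likelihood over the 4 groups of diet and genotype, all 17 libraries sharing 1 estimate of the spread. The standard error is the log2 fold change divided by the root of the F statistic. limma 3.58.1 and DESeq2 1.42.0 served as alternatives, and library measures were compared by exact permutation (scipy 1.17.1). Floors and intervals were not used. The steps were tested on simulated counts.

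The comparison, the 61 gene lists (1273 of 1278 names matched) and the genes named were chosen with earlier results of these data known. Named genes were 11 given genes, called protein-coding genes of at least 1 CPM with the largest folds (12 each way) or CPM differences (10 each way), and up to 6 called members of each list with the smallest p, with list members needed to describe a list. The 12 rises with the largest log2 fold change minus 2 SE and the 10 smallest p-values were added after values were seen. Some genes that the rule named are not reported here. Promoter sequences are RefSeq's for GRCm38.p6. GC content and transcript lengths came from GENCODE M21.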

Additional observations from a re-analysis of the deposited data

Results flagged for a closer look

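Single libraries stood far from the others of their group, by Dixon's ratio, in 5 of 48 groups of library measures and in 19 of 290 groups of named genes (6.55%), where chance flags about 1 in 20. Skeletal muscle markers summed to 8854 CPM in HFD replicate 1 and hepatocyte markers to 344 CPM in HFD replicate 5, where Alb read 106 CPM. B-cell markers summed to 14.7 CPM in chow replicate 1, endothelial markers to 841 CPM in chow replicate 4, and nerve markers to 206 CPM, the lowest on HFD, in replicate 5.

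Chow replicate 4 stood apart for Scd1 (102300 CPM, high), Hmgcs1 (292.5 CPM, high), Adipoq (366 CPM, low) and Apln (1.96 CPM, low). Chow replicate 1 stood apart for Nnat (8.65 CPM), Phgdh (5.10 CPM) and Irs1 (61.6 CPM), and chow replicate 3 for Cyp1a1 (2.67 CPM) and Gpx8 (41.1 CPM). HFD replicate 3 was high for Mest (46.6 CPM), Ccl9 (20.96 CPM), Lox (92.7 CPM) and H2ac19 (0.701 CPM) and low for Elovl5 (51.4 CPM). HFD replicate 4 was low for Top2a (2.101 CPM) and Ccna2 (0.885 CPM), HFD replicate 5 high for Scd3 (0.286 CPM), and HFD replicate 1 high for Phyhip (0.252 CPM).

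The diet effect differed between genotypes, by the interaction term, for 5 of the named genes. The knockout effect minus the wild-type effect (log2) was 0.94 for Dbi, 0.91 for Insig1, -0.94 for Slc3a2 (-0.935), -0.49 for Lrrc8d and -1.46 for Gulp1, with adjusted p = 0.0377 for each but Slc3a2, where it was 0.0388 (edgeR, 16 genes called of 17717).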

How the results depend on the processing

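Of 145 genes examined by name, 138 were called. Among these, 116 kept their call under all 22 alternatives, and 124 under all but library totals. Many were chosen for small p-values or large changes in these data, so these counts do not stand for all called genes. Of all 5685 called genes, 3888 were called in every fit without 1 wild-type library. Library totals gave 10923 calls, 10497 higher and 426 lower, against 5685, 2986 and 2699. With only the wild-type libraries 4721 genes were called, 2610 higher and 2111 lower. Without chow replicates 1 and 2 together, the chow libraries with the lowest numbers, 3859 genes were called, 1945 higher and 1914 lower. Leaving out each wild-type library gave 4734 to 5642 calls, 2467 to 3016 higher and 2267 to 2645 lower. In the knockout, leaving out a library gave 3166 to 4397 calls. The 16 genotype differences became 63 under library totals, 196 in DESeq2 and 0 to 33 without single libraries. Signs turned under library totals for Adipoq (0.20) and Srebf2 (0.17), and without chow replicates 1 and 2 for Adrb3 (-0.0043). Over the fits without 1 wild-type library, Dio2 ran from -0.157 to 0.440 (negative without chow replicate 1 or 4 or HFD replicate 5) and Ppargc1a from -0.0859 to 0.274 (negative without HFD replicate 5). With muscle and liver scores as covariates Ppargc1a stood at -0.0314. The cause was not tested. The medians of 58 of 61 lists moved by over 1 SD under library totals, and of 18 under any other alternative. GC and length offsets, chosen after seeing the data, left 2594 higher and 2979 lower calls. The groups share replicate numbers, and same-numbered libraries deviated with correlations of 0.312, 0.379, -0.384 and -0.079. Differently numbered libraries ran from -0.428 to 0.340, so these values cannot tell whether the numbers pair the samples. With a replicate block 5147 genes were called in wild-type, 2730 higher and 2417 lower, and 3721 in the knockout. The block left 1 genotype difference, and gave Dio2 -0.13, Ppargc1a -0.08 and Adrb3 0.39, which it called higher (edgeR's adjusted p = 0.0368).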

Other observations

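Small structural RNAs were abundant. Rn7s1, the RNA of the signal recognition particle, read 15290 ± 3927 CPM on chow (SD, n = 4) and 7829 ± 807 CPM on HFD (n = 5), and its near-identical copy Rn7s2 15330 ± 3856 and 7817 ± 743 CPM. Both were called lower (adjusted p = 0.000188 and 0.000138), with Rpph1, the RNA of RNase P, at 2445 ± 350 and 1307 ± 127 CPM. The median of the 8 such RNAs was -0.65, and 0.12 with GC and length offsets, so the direction depended on that setting.

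Kit, the stem cell factor receptor, read 43.6 ± 11.5 CPM on chow and 16.7 ± 3.77 CPM on HFD and was called lower (log2 fold change of -1.38, edgeR's adjusted p = 0.00494), while the mast cell proteases Cpa3 and Tpsb2, all under 1 CPM, were called higher (1.07 and 1.45). In the mesothelium list Lrrn4 fell from 3.61 ± 0.880 to 0.554 ± 0.152 CPM, and 5 of the 8 names were not tested. Of 28 antioxidant genes, 10 fell (35.7%) and 5 rose (17.9%) under TMM, against 15.2% and 16.9% of all genes. Under library totals 2 were lower and 20 higher, against 426 and 10497 of all 17717 genes. Txn1, thioredoxin, fell from 60.2 ± 9.81 to 36.1 ± 1.72 CPM under both scalings, and Prdx6, a peroxiredoxin, rose from 83.3 ± 10.2 to 123 ± 12.3 CPM.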
